A study of Homo sapiens with 12 samples.

Results

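Chromosome arm 3p, the short arm of human chromosome 3, was read through its CCGG sites, the recognition sequence of the restriction enzymes HpaII and MspI. All sites listed on chromosome 3 before its centromere (hg19) in any of the 12 libraries were taken, which gave 20301 sites of the 1019951 listed in the whole study. They lie between positions 69496 and 90437335, and a gap of 3113359 bp without listed sites separates the last of them from 3q, which holds 23359 sites. The running site numbers of the files place 58253 reference CCGG sites on 3p, 2.55% of the 2281218 on chromosomes 1 to 22 and X.

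The study compared DNA of 2 clear cell renal cell carcinoma (ccRCC) lines, labelled 769 and 786, either untreated or given AA, which is ascorbic acid or vitamin C. The TET enzymes, which oxidise methylated cytosine, use it as a cofactor. Each line gave 1 control DNA and 2 AA-treated DNAs, and each DNA was cut with HpaII and with MspI in separate HELP-tagging libraries, in which a short sequence tag beside each cut site is counted. What the numbers 1 and 2 of the AA samples stand for is not given in the labels, so SDs and p-values measure only the spread between these samples, which may be technical. Both lines are established tumour lines with no normal kidney DNA beside them, and a line is 1 genome, so a difference between the lines is a difference between these 2 genomes.

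Loss of 3p is the defining chromosome change of clear cell renal cell carcinoma, and several tumour suppressors lie close together on the arm. Among them are PBRM1, a subunit of a SWI/SNF chromatin remodelling complex, and SETD2, a histone H3 lysine methyltransferase. MspI cuts CCGG whether or not its inner cytosine is methylated, so the share of MspI tags in a region follows the amount of its DNA. HpaII cuts only unmodified sites, so the HpaII share over the MspI share is high where methylation is lacking, as at most CpG island promoters.

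Promoters were found in the data by the order and spacing of their CCGG sites, as given by RefSeq promoter sequences (GRCh38.p14). Of 725 genes that RefSeq lists with a promoter sequence on 3p, 175 were placed in this way. The sequences of 6 of them follow, chosen because the results below turn on them. Each is the 250 bases before the start site, 5′ to 3′ on the gene's strand (minus for PBRM1 and SETD2, plus for the other four), with every CCGG in capitals, so that the capitals mark the only places these libraries can read.
PBRM1: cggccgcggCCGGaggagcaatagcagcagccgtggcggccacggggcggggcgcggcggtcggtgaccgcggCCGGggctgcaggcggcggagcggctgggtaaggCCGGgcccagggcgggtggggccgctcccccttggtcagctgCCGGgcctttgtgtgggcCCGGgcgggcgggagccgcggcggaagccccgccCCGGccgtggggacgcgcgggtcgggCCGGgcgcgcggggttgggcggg
SETD2: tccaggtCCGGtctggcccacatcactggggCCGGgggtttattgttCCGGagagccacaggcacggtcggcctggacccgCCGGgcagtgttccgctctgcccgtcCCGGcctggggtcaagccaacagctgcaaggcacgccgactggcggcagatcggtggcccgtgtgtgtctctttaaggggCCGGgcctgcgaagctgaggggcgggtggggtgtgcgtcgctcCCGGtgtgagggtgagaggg
TRIM71: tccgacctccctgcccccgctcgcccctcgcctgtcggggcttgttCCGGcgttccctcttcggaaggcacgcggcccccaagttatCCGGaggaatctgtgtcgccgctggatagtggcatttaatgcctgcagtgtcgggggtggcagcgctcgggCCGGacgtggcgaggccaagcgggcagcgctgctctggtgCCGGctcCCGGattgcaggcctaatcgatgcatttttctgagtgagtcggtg
PARP3: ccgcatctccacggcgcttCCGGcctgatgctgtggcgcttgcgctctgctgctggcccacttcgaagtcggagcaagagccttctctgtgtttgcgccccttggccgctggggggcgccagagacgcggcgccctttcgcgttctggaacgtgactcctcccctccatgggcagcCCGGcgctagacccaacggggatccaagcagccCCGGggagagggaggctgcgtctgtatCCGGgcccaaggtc
CAPN7: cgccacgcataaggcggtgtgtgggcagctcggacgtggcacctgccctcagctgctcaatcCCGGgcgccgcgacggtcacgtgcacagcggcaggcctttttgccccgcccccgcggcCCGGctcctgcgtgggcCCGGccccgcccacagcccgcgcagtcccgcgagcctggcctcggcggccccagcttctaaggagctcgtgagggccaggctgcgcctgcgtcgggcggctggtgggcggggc
MITF: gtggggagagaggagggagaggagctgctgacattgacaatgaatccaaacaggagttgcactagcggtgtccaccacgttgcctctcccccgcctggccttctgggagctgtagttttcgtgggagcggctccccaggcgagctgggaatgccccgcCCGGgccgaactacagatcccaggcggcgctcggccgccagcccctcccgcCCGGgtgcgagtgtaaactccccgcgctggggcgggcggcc
PBRM1 and SETD2 each had 7 CCGG sites in these 250 bases, TRIM71 had 5, PARP3 had 4, CAPN7 had 3 and MITF had 2. In hg19 the listed sites of these promoter sequences run from chr3:52719598 to 52719855 for PBRM1 and from chr3:47205622 to 47205845 for SETD2. They run from chr3:32859287 to 32859446 for TRIM71, from chr3:51976150 to 51976413 for PARP3, from chr3:15247567 to 15247801 for CAPN7 and from chr3:69788525 to 69788651 for MITF.

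Depth on 3p differed widely between libraries. The MspI libraries held 35331 to 128665 tags at 4199 to 11289 sites of 3p, and the HpaII libraries other than the 786 control held 29472 to 156462 tags. Among these the HpaII library of the 769 control had its 57533 tags at the fewest sites, 1538. Its AA samples 1 and 2 had 73571 tags at 4158 sites and 29472 tags at 1879. Each AA comparison in 769 rests on that control library. The HpaII library of the 786 control held 2242 tags at 531 sites of 3p, from a library of 189704 tags, and each comparison that uses it rests on that depth. Only 691 of the 20301 sites had a tag in all 6 MspI libraries and 86 in all 6 HpaII libraries, so single sites were sampled thinly and the results are given over bins, promoters and classes of sites. The 5 sites with the most MspI tags each took 0.130% to 0.163% of the MspI tags of the arm, so no single site carried it. The site with the largest share, chr3:44056157, had 58 to 253 MspI tags in each of the 6 DNA samples and 0 HpaII tags in all 6.

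The amount of 3p DNA was low in both lines and lower in 769. Of all MspI tags on chromosomes 1 to 22 and X, 3p held 1.01% in the 769 control, 1.07% in AA sample 1 and 1.02% in AA sample 2. In 786 it held 1.55% in the control, 1.57% in AA sample 1 and 1.58% in AA sample 2, so the lines did not overlap. Because CCGG-rich regions give more tags per site, an MspI level was computed as observed tags over those expected from the CCGG density of the bins of the arm, with 1 as the mean of the genome. This level was 0.479, 0.512 and 0.479 in the control, AA sample 1 and AA sample 2 of 769, and 0.722, 0.726 and 0.741 in those of 786.

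The means were 0.490 ± 0.019 in 769 and 0.730 ± 0.010 in 786 (SD, n = 3 each), a ratio of 1.49 and a log2 difference of 0.58. The exact permutation test gave p = 0.1 (two-sided), the smallest that 3 samples against 3 allow. Among 41 chromosome arms 3p had the lowest MspI level of 769, in each of its 3 samples, and the ninth lowest mean of 786. Its ratio between the lines was the second highest of the 41. The level of 3q was 0.947 ± 0.030 in 769 and 0.998 ± 0.033 in 786 (SD, n = 3 each), with overlapping samples. A level is relative to the other arms of the same genome, so it is no count of copies, and cells that differ in copy number within a culture are averaged.

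**Figure D1:**
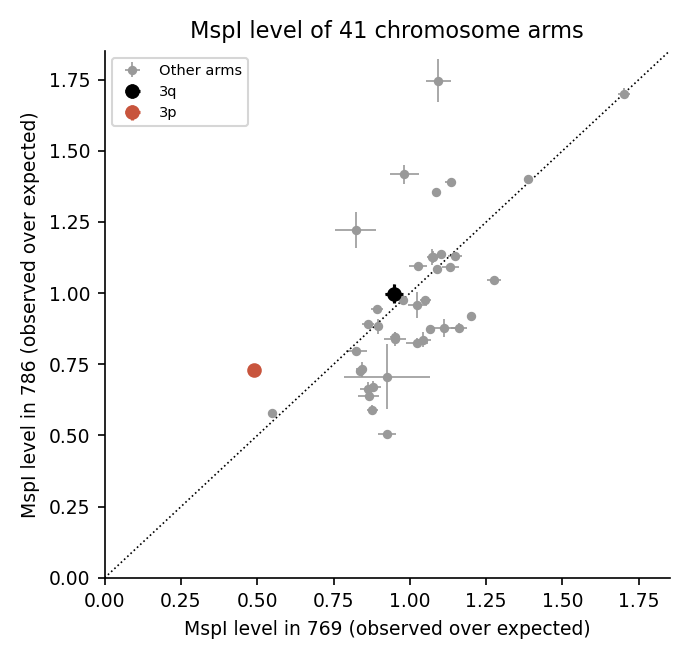
Mean MspI level in 769 (horizontal) and 786 (vertical) of each of 41 chromosome arms, observed tags over those expected from CCGG density, with SD over 3 DNA samples as bars and equality as the dotted line. 3p lies at 0.490 and 0.730, left of every other arm, while 3q lies at 0.947 and 0.998.

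The difference did not extend over the whole arm. A model with a single change in the ratio of the lines along 3p was fitted, and the best position was between 66.8 and 69.5 Mb over the 9 pairs of a 769 and a 786 library, with a median at position 68600000. On the telomere side of this interval the MspI level was 0.453, 0.484 and 0.456 in the control and AA samples 1 and 2 of 769, against 0.739, 0.740 and 0.746 in those of 786. The means there were 0.464 ± 0.017 and 0.742 ± 0.004 (SD, n = 3 each), a ratio of 1.60. On the centromere side the order of the lines turned. There 769 had 0.728, 0.802 and 0.700 in the control and AA samples 1 and 2, and 786 had 0.614, 0.610 and 0.694, a ratio of 0.860. The sides were divided where the ratio of these same libraries changed most, so these values describe the profile and are given with no test. On the centromere side the lowest 769 sample and the highest 786 sample were close.

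Within each library the telomere side had 0.623, 0.603 and 0.652 times the level of the centromere side in the control and AA samples 1 and 2 of 769. The same ratio was 1.20, 1.21 and 1.08 in 786. By this level the step went down towards the telomere in every 769 sample and up in every 786 sample. The direction in 769 depended on the density correction, whose rates come from other chromosomes too. With tags expected from reference site number alone, the telomere side of 769 had 0.404, 0.430 and 0.408. The centromere side then had 0.377, 0.393 and 0.367, so the step went up in every 769 sample. The placed promoters that bracket the interval are LRIG1, a membrane inhibitor of growth factor receptors, at position 66551448 and MITF, a transcription factor of melanocytes, at 69788617. Between them SUCLG2-DT was placed at 67705123, TAFA4 at 68981700 and FRMD4B at 69435241. In RefSeq order KBTBD8, SUCLG2, TAFA1, EOGT, TMF1, UBA3, ARL6IP5 and LMOD3 also lie between LRIG1 and FRMD4B.

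**Figure D2:**
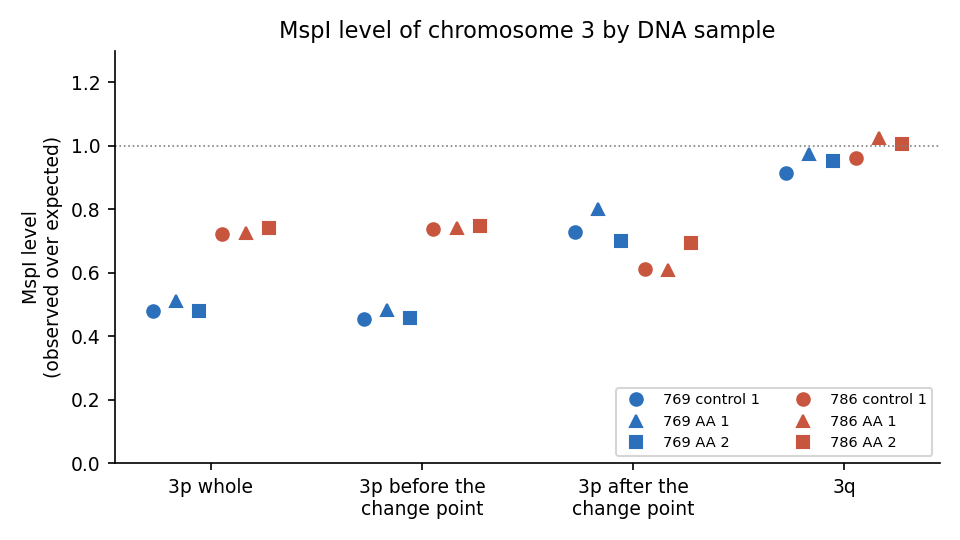
MspI level of 3p, of its 2 sides of the change point and of 3q, with 1 point for each DNA sample (colour for the line, circle for the control, triangle and square for AA samples 1 and 2). The lines separate on the telomere side (0.453 to 0.484 against 0.739 to 0.746), are turned on the centromere side and overlap on 3q.

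A fit over bins of 1 Mb described the same difference along the arm. With edgeR's quasi-likelihood test and Benjamini-Hochberg adjustment over the genome, 46 of 89 tested bins of 3p had more MspI tags in 786 and none had fewer at an adjusted p under 0.05. Over the genome 12.3% of bins were called higher in 786, so the share on 3p was above the background. The median log2 difference was 0.61 over the 89 bins, against 0.02 over all 2855 tested. On the telomere side all 64 tested bins had a log2 difference above 0, from 0.40 to 1.42, and 45 were called. Of the 4 bins that touch the change point interval 1 was called. Of the 21 bins on the centromere side none was called, with log2 differences from -0.95 to 0.53. The sides were divided by the ratio of these same libraries, so the counts by side describe the profile and are no separate support.

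The 5 bins with the largest called differences were spread over the telomere side. The largest was chr3:19000001-20000000, where 310, 133 and 95 MspI tags were counted in the control and AA samples 1 and 2 of 769 and 574, 501 and 367 in those of 786. Its share of MspI tags per reference site, relative to the genome, was 0.165, 0.162 and 0.167 in 769 and 0.420, 0.537 and 0.368 in 786, without overlap (log2 difference 1.42 ± 0.28 SE, edgeR adjusted p = 0.0016). Next were chr3:65000001-66000000 (1.32 ± 0.26), chr3:40000001-41000000 (1.28 ± 0.20) and chr3:3000001-4000000 (1.28 ± 0.23). The last of these holds the placed promoters of CRBN, the substrate receptor of a ubiquitin ligase, TRNT1, a tRNA-processing enzyme, and LRRN1. The fifth, chr3:35000001-36000000, had a log2 difference of 1.19 ± 0.36 and lost its call without the 769 control, 769 AA sample 2 or the 786 control (highest adjusted p 0.089 by edgeR). Lower in 786, with no call, the smallest p was at chr3:70000001-71000000, just past the change point (log2 difference -0.84 ± 0.31, edgeR adjusted p = 0.059).

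**Figure D3:**
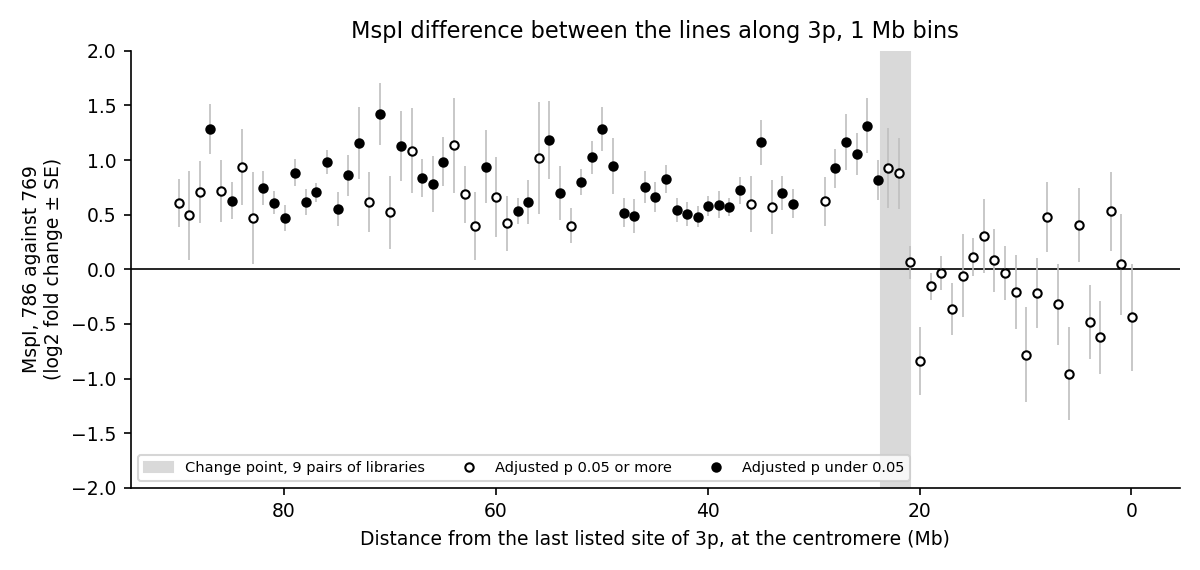
Log2 difference of MspI tags between 786 and 769 with its SE in each tested 1 Mb bin of 3p, against the distance to the centromere end of the arm, with filled points for an edgeR adjusted p under 0.05. The 64 bins on the telomere side (left) all lie above 0 and those right of the grey change point interval lie on both sides of it.

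Within the telomere side, a stretch of 5 neighbouring bins of 100 kb, chr3:60600001-61100000, was nearly empty of MspI tags in 769 alone. Over its 188 reference sites the MspI libraries had 0, 2 and 0 tags in the control and AA samples 1 and 2 of 769, against 142, 120 and 70 in 786. The 2 lines were thus 2 tags against 332 in sum. HpaII gave 0, 0 and 27 tags in 769 and 0, 47 and 1 in 786, so AA sample 2 of 769 did have HpaII tags there. It was found by a search for runs of at least 3 bins, each with at most 2 MspI tags over the libraries of 1 line. Runs were kept where the other line had at least 100 MspI tags, so the contrast between the lines follows from the selection. The stretch was 1 of 4 such runs found in 769 over the genome, with no run found in 786. In RefSeq order it lies between the placed promoters of KCTD6 (position 58477825) and LOC124909387 (61237268), among genes that include FHIT, a large gene at a common fragile site. Whether 769 lacks this DNA was not tested beyond these counts. The 1 Mb bin with most of it and its neighbour were the 2 of 91 bins that could not be tested.

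No difference of the MspI profile with AA was called on the arm. In the same fit 0 of 89 bins differed between AA and control samples by edgeR (background 0% of 2855 bins) and 0 by DESeq2 (background 0.0701%). By each tool 3 bins, or 3.37%, had an unadjusted p under 0.05. Over the genome that share was 3.68% by edgeR and 4.27% by DESeq2. The median log2 difference of the 89 bins was 0.01.

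HpaII relative to MspI over the whole arm differed little. The HpaII share over the MspI share was 1.12, 1.10 and 1.09 in the control and AA samples 1 and 2 of 769 and 0.905, 1.04 and 1.11 in those of 786. The AA samples were below the control in 769 and above it in 786. The mean log2 difference between AA and control was 0.10 (exact permutation test within lines, two-sided, p = 0.444, smallest possible 0.111). Between the lines it was -0.12 (exact permutation test, p = 0.3, smallest possible 0.1). On the centromere side of the change point the ratio was below that of the telomere side in all 6 samples, at 0.974, 0.818 and 0.812 against 1.15, 1.14 and 1.13 in 769, and at 0.617, 0.979 and 0.936 against 0.915, 1.04 and 1.12 in 786.

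The values differed more by the density of CCGG sites. Reference CCGG sites within 1 kb were counted from the first to the last listed site of that window. Only 34.9% of the reference sites of 3p are listed, and listing depends on these same libraries. A site without listed neighbours thus counts as isolated whatever lies around it. At sites with 1 to 2 reference sites by this count, called isolated, the ratio was 0.146, 0.246 and 0.167 in the control and AA samples 1 and 2 of 769. In 786 it was 0.353, 0.434 and 0.459, higher than every 769 sample (log2 difference 1.19, exact permutation test p = 0.1, the smallest possible). At sites with 16 or more it was 3.79, 2.93 and 3.01 in 769 and 2.77, 2.45 and 2.91 in 786, where every 786 sample was just below every 769 sample (log2 difference -0.25, exact permutation test p = 0.1). Over chromosomes 1 to 22 and X the ratio at isolated sites was likewise lower in 769 (0.159, 0.327 and 0.342) than in 786 (0.499, 0.605 and 0.503), and at 16 or more it was 3.95, 2.66 and 2.51 against 2.64, 2.26 and 2.46. Since the ratio compares shares of a library, a higher value in one class goes with lower values in others, and the opposite signs are not separate findings.

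The ratio of isolated sites to dense sites was used to follow AA on one scale. It was 0.0385 in the 769 control and 0.0840 and 0.0554 in its AA samples 1 and 2, and 0.128 in the 786 control and 0.177 and 0.158 in its AA samples. All 4 AA samples lay above the control of their line, by 1.77 times on average in 769 and 1.31 times in 786. The mean log2 difference was 0.61 (exact permutation test within lines, two-sided, p = 0.111, the smallest possible). Over chromosomes 1 to 22 and X the same folds were 3.21 and 1.24, and on 3q 2.50 and 0.819. No test of 3p against these regions was made.

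**Figure D4:**
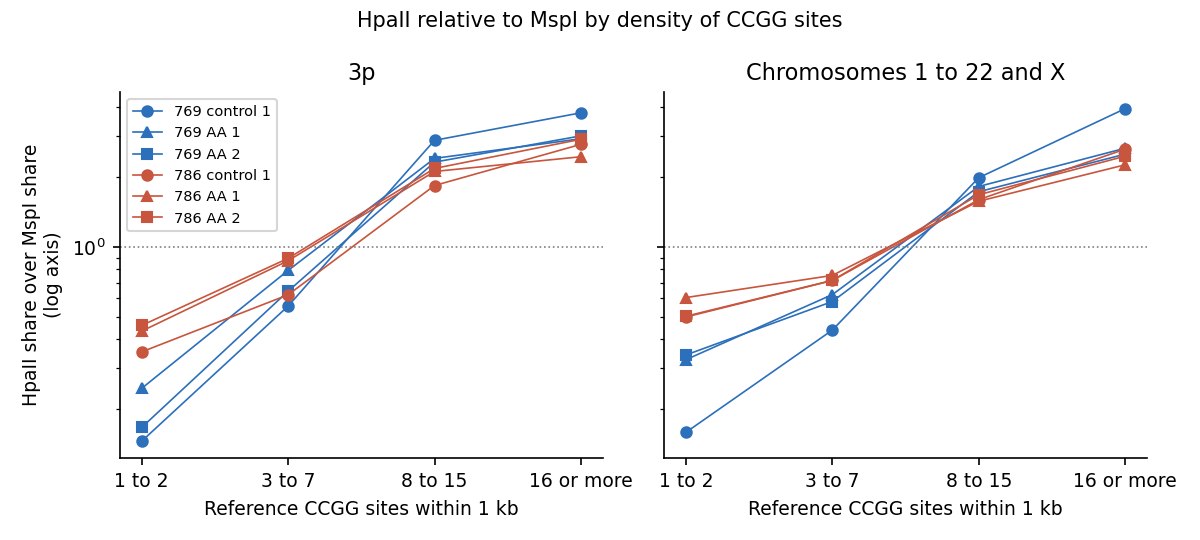
HpaII share over MspI share (log axis) by the number of reference CCGG sites within 1 kb, on 3p (left) and on chromosomes 1 to 22 and X (right), with 1 line for each DNA sample. Reference sites are counted from the first to the last listed site of the window. On 3p the isolated sites lie at 0.146 to 0.246 in 769 and at 0.353 to 0.459 in 786.

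Bins of 100 kb with at least 10 MspI tags in each library and 10 HpaII tags over all libraries numbered 354 on 3p. Of these, 82 had 0 HpaII tags in the 769 control, 20 and 73 in its AA samples 1 and 2, 136 in the 786 control, and 12 and 7 in its AA samples. The bins with 0 tags were thus most frequent in the 786 control, the library with the fewest tags. The 3 bins with the highest mean ratio were chr3:17700001-17800000, chr3:25700001-25800000 and chr3:38200001-38300000, each led by the 769 control (33.3, 26.7 and 28.9) with 0.682 to 3.27 in the other samples of 769. The 769 control had only 18, 20 and 15 MspI tags there, near the filter of 10, so these ratios rest on few tags. The 3 with the lowest mean ratio were chr3:66400001-66500000, chr3:36800001-36900000 and chr3:8700001-8800000, at most 0.071 in every sample.

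Between the lines, 0 of the 354 bins differed in HpaII relative to MspI by edgeR at an adjusted p under 0.05 (background 0.941% of 15623 bins), 32 had an unadjusted p under 0.05, and DESeq2 called 20. Over the genome 2189 of 15623 bins had such a p and DESeq2 called 7.96%, so the shares on 3p, 9.04% and 5.65%, were not above the background. The smallest p was at chr3:50400001-50500000, where the ratio was 0.106, 0.542 and 0.423 in 769 and 1.18, 1.37 and 1.85 in 786, without overlap (log2 difference 2.19 ± 0.52 SE, edgeR adjusted p = 0.066). Lower in 786, the smallest was at chr3:71800001-71900000, which holds the placed promoters of EIF4E3, a cap-binding protein, and PROK2, a secreted prokineticin. Its ratio was 2.12, 1.59 and 1.91 in 769 and 0.166, 0.613 and 1.02 in 786 (edgeR adjusted p = 0.17).

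In 769, 10 of the 354 bins gained HpaII relative to MspI with AA and none lost it by edgeR. The background was 3.58% of bins higher over the genome, and 10 of 354 is 2.82%, so the arm was near the background. The smallest adjusted p was at chr3:13300001-13400000, with 11 HpaII tags in the control and 334 and 77 in AA samples 1 and 2, beside 930, 411 and 224 MspI tags. Its rise was 20.2-fold as the geometric mean of the AA samples over the control (95% Poisson interval 11.3 to 40.5 from the control's tags alone, edgeR adjusted p = 0.0037). At chr3:51900001-52000000, the bin of the PARP3 promoter, the HpaII tags were 14 in the control and 467 and 227 in the AA samples (edgeR adjusted p = 0.0055). The log2 difference there was 4.59 ± 0.76 (SE).

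The 3 bins with the largest fitted differences had 0 HpaII tags in the 769 control. At chr3:24800001-24900000 the AA samples had 219 and 101 HpaII tags, 111-fold higher against a floor of 3 tags in the control library. That floor allows for counting error of single tags only, so folds against it are not lower bounds. At chr3:12200001-12300000 the AA samples had 105 and 56, 90.2-fold higher against the floor. At chr3:72100001-72200000 they had 128 and 46, 39.4-fold higher against the floor. That call was lost with library totals, and without 769 AA sample 1, the 786 control or either 786 AA sample. Against 1 control tag, chr3:10800001-10900000 had 217 and 20, and chr3:42700001-42800000 had 128 and 55. Their rises were 125-fold (95% Poisson interval 22.4 to 4932 from the control's tag alone) and 106-fold (19.0 to 4176). The first of these calls was lost without 769 AA sample 1 or the 786 control. With the libraries of each enzyme thinned to the smallest, chr3:24800001-24900000 and chr3:42700001-42800000 lost their calls (edgeR adjusted p 0.19 and 0.40). The calls at chr3:72100001-72200000 and chr3:10800001-10900000 were lost by thinning too. Of the 10 bins, 4 others hold placed promoters, those of ALS2CL, EXOSC7 (an RNA exosome subunit), LHFPL4 and SLC6A11 (a GABA transporter, in chr3:10800001-10900000).

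The number of bins called in 769 moved with single samples, as did that over the genome. Without 769 AA sample 1 it was 21, of which 12 rose and 9 fell (5.92% of bins, against 4.55% over the genome). Without AA sample 2 it was 19, all higher (4.75% against 5.85%). Without the shallow 786 control it was 7, all higher (1.97% against 3.53%). In 786, 0 of 354 bins differed between AA and control by edgeR (background 0.384%) and 0 by DESeq2 (background 1.15%). By edgeR 37 bins had an unadjusted p under 0.05, which is 10.5%, against 12.7% over the genome. Over both lines 0 bins were called by edgeR (background 0.307%), 45 had an unadjusted p under 0.05 and DESeq2 called 16. Over the genome 1874 of 15623 bins had such a p, close to the 12.7% of 3p, and DESeq2 called 3.13%, against 4.52% on 3p. The smallest adjusted p was at chr3:45000001-45100000, the bin of EXOSC7, with 4, 219 and 68 HpaII tags in the control and AA samples 1 and 2 of 769 and 0, 308 and 232 in those of 786 (edgeR adjusted p = 0.083). The AA effect itself differed between the lines at 1 of 354 bins (background 0.986%), chr3:13500001-13600000, where the ratio was 1.28, 0.702 and 0.853 in 769 and 0, 0.710 and 1.04 in 786 (edgeR adjusted p = 0.048).

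Promoters gave the same measurement at named genes, as tags within 1 kb of the placed start. Of the 175 placed promoters of 3p, 136 passed the low count filter of the bins, and 46 of the 175 share sites with another placed promoter. Most were rich in HpaII tags in both lines. Of 170 with at least 30 MspI tags in each line, 152 had a ratio above 1 in both lines, with medians of 3.03 in 769 and 2.25 in 786. Over all 6048 such promoters of the genome the medians were 2.95 and 2.42. A ratio under 0.1 in both lines was found at 1 of the 170, in 769 alone at 1 and in 786 alone at 1, 0.588% each. Over the genome these shares were 1.17%, 0.562% and 0.876%, and those of 3p are described here with no test.

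The promoter low in both lines was that of DCLK3, a doublecortin-like kinase. It had 7 HpaII tags in 1 AA sample of 769 and 0 in the other 5 libraries, beside 17 to 70 MspI tags. The promoter low in 769 alone was that of the zinc finger gene ZNF662, where 26 HpaII tags in AA sample 2 of 786 were the only ones. The promoter low in 786 alone was that of TRIM71.

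TRIM71, an RNA-binding ubiquitin ligase of stem cells and early embryos and a target of the let-7 microRNAs, had 3 HpaII tags in the 769 control and 129 and 70 in its AA samples 1 and 2. In 786 it had 0 in the control and 12 and 3 in the AA samples. MspI gave 296, 94 and 41 tags in 769 and 310, 157 and 178 in 786 over the whole window. The ratio was 0.023, 1.11 and 2.23 in 769 and 0, 0.045 and 0.028 in 786. The 769 control thus lay within the range of 786, and only the AA samples of 769 stood above it.

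In 769 the rise of TRIM71 with AA was 68.4-fold (95% Poisson interval 23.4 to 332 from the control's 3 tags, edgeR adjusted p = 0.012), and it kept its call under the 8 alternatives that could test it. Between the lines it was the only 3p promoter called (log2 difference -5.25 ± 1.19 SE, edgeR adjusted p = 0.020, background 0.759% of 5270 promoters). That call was lost without any 1 of the 4 AA samples (adjusted p 0.12 to 0.31 by edgeR). The difference of the AA effect between the lines at TRIM71 had an edgeR adjusted p of 0.99, so it was not shown that AA acted differently there. Within the 300 bases of the promoter sequence itself, printed above without its last 50 bases, the 769 libraries had 0 HpaII tags, so their HpaII tags came from sites farther out in the window. In 786 the sequence itself had 0, 12 and 3 HpaII tags, which are all that the window held. MspI gave only 21, 6 and 0 tags there in 769 and 44, 3 and 21 in 786, too few to compare the lines within the sequence.

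With AA in 769, 5 of 136 tested promoters of 3p were called by edgeR, 4 higher and 1 lower (background 2.18% of 5270). PARP3, an ADP-ribosyltransferase that acts at DNA breaks, had 12 HpaII tags in the 769 control and 437 and 227 in the AA samples, beside 286, 96 and 34 MspI tags. Its rise was 59.5-fold (95% Poisson interval 34.1 to 115 from the control's tags, edgeR adjusted p = 0.0039). In 786 PARP3 had 5, 426 and 307 HpaII tags in the control and AA samples, a ratio of 0.941, 1.65 and 3.71, and the fold was 2.63 (1.13 to 8.09). These tags are also those of the bin chr3:51900001-52000000. The difference between the lines at PARP3 did not pass (edgeR adjusted p = 0.12).

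BSN-DT, a transcript that diverges from the presynaptic scaffold gene BSN, had 3 HpaII tags in the 769 control and 91 and 201 in its AA samples, with 217, 42 and 24 MspI tags. The rise in 769 was 140-fold (95% Poisson interval 47.8 to 677 from the control's 3 tags, edgeR adjusted p = 0.016). In 786 it had 0, 219 and 135 HpaII tags, 1.64-fold higher with AA against the floor of 3 tags, which in that shallow library is high. BSN-DT was the 1 promoter of 3p called for AA over both lines (edgeR adjusted p = 0.050, just under the threshold, background 0.266%). That call was lost without 769 AA sample 2 or either 786 AA sample.

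LOC124909387, a long non-coding RNA gene beside the stretch at 60.6 Mb that was nearly empty in 769, had 0 HpaII tags in the 769 control and 107 and 159 in the AA samples. FHIT, listed next to it in RefSeq order, was not placed. Whether this window also covers the start of FHIT was not determined. This is at least 93.9-fold higher (edgeR adjusted p = 0.028), a call lost without 786 AA sample 1. CAPN7, a calpain protease, was the 1 promoter that fell. It had 221 HpaII tags in the 769 control and 81 and 26 in the AA samples, but also 11 MspI tags in the control against 45 and 38. The ratio was 45.5, 1.45 and 0.892 (log2 difference -4.97 ± 1.33 SE, edgeR adjusted p = 0.047), and the call was lost without the 786 control or 786 AA sample 1. In 786 CAPN7 had ratios of 40.9, 3.53 and 6.92, also with the control highest. With the libraries thinned to the depth of the 786 control, PARP3, BSN-DT and LOC124909387 lost their calls (edgeR adjusted p 0.37, 0.40 and 0.49), and TRIM71 and CAPN7 had too few tags to be tested.

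In 786 no promoter of 3p was called for AA by edgeR (background 1.04%) or DESeq2 (background 0.455%). By edgeR 23 had an unadjusted p under 0.05, which is 16.9%, against 17.8% over the genome. The smallest p was at MITF, with 1 HpaII tag in the 786 control and 830 and 319 in its AA samples, beside 285, 101 and 165 MspI tags. In 769 MITF had 840 HpaII tags in the control and 596 and 204 in the AA samples. The ratio was thus 10.7, 2.54 and 1.67 in 769 and 0.182, 4.86 and 3.20 in 786. The AA samples were below the control in 769 and above it in 786, and the difference between the lines was the 1 promoter call of that test on 3p (log2 difference 6.63 ± 1.44 SE, edgeR adjusted p = 0.039, background 0.455%). It was lost without 786 AA sample 1 and when the libraries were thinned to the depth of the 786 control (edgeR adjusted p = 0.11 in either case). The window covers a single placed start of MITF, and which transcript starts there was not determined.

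Of 49 genes in 4 lists of 3p genes, 14 were placed and all 14 were tested. Of the 4 renal carcinoma suppressors of the first list, 2 were placed and neither was called in any comparison. PBRM1 had ratios of 6.64, 1.39 and 1.22 in the control and AA samples of 769 and 22.7, 8.46 and 4.67 in those of 786, from 7 to 186 HpaII tags and 13 to 93 MspI tags, and its window is shared with GNL3. SETD2 had ratios of 1.89, 4.10 and 2.11 in 769 and 0, 3.46 and 2.64 in 786, where the 0 stands for 0 HpaII tags beside 164 MspI tags in the shallow 786 control. Apart from that library, both promoters had a ratio above 1 in every sample.

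Of 22 further genes often methylated or lost in cancer, 5 were placed and none was called. RASSF1, a scaffold protein of Ras signalling whose promoter is often methylated in renal carcinoma, had ratios of 5.69, 3.79 and 5.78 in 769 and 5.84, 7.50 and 2.42 in 786. This window covers 1 of the start sites of the gene and is shared with RASSF1-AS1. Which start it covers was not determined, so the ratios may not be those of the promoter often methylated in renal carcinoma. WNT7A, a Wnt ligand, had 4.77, 2.55 and 3.90 in 769 and 1.25, 1.28 and 1.03 in 786, without overlap but with no call. SEMA3F, a secreted semaphorin, CACNA2D2, a calcium channel subunit, and FANCD2, a DNA repair protein, had ratios of 1.10 to 21.8 in all samples.

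Of 11 constitutively active genes 3 were placed and none was called. CTNNB1, which encodes beta-catenin, had ratios of 2.14 to 11.2 over the 6 samples. ARPC4, an actin nucleation subunit, ranged from 0.727 to 12.1, and NDUFAF3, an assembly factor of respiratory complex I, from 0.452 to 7.74. Of 12 lineage and tissue-restricted genes 4 were placed, and MITF alone was called, in the test of the difference described above. OXTR, the oxytocin receptor, had 6, 211 and 49 HpaII tags in 769 and 0, 318 and 53 in 786. Its ratio of 0.083, 2.18 and 0.888 in 769 and 0, 2.19 and 0.764 in 786 was lowest in the control of each line, with no call. FOXP1, a forkhead transcription factor, had ratios of 1.77 to 15.2 over the 6 samples. CNTN4, a neuronal adhesion protein, had 2.07 to 5.66 in 5 samples and 0 HpaII tags beside 234 MspI tags in the 786 control.

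**Figure D5:**
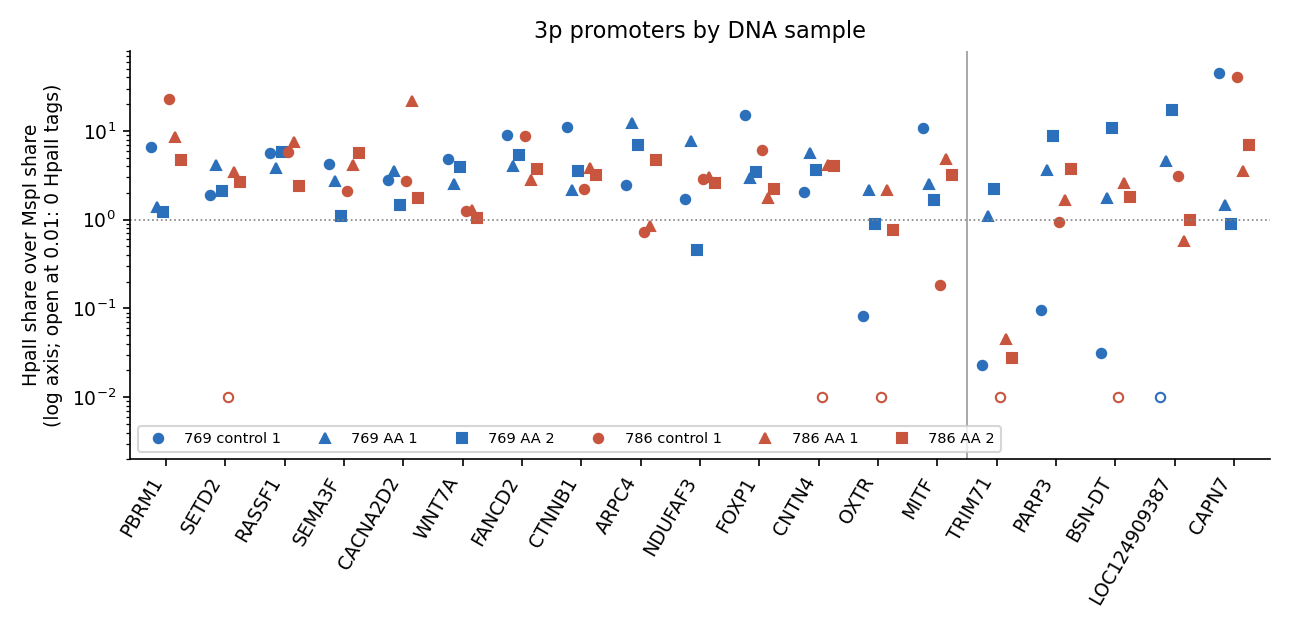
HpaII share over MspI share (log axis) at 19 placed promoters of 3p in each DNA sample, with the 14 listed genes left of the vertical line and the 5 called with AA in 769 right of it. Colours give the line, shapes the control and AA samples, and open symbols at 0.01 stand for 0 HpaII tags. TRIM71 is low in all 3 samples of 786 and in the 769 control, at 0 to 0.045.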

How the data were processed

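HELP-tagging libraries of 6 DNA samples from 2 ccRCC lines, each cut with HpaII and MspI, were analysed. The authors deposited, per the file headers and values, estimated counts of tags at each CCGG site, for either flank and summed, with the library total and no normalization. Positions are hg19, per the submitters' processing notes, and the aligner was not given in the sources used here. Of the values on 3p, 3.41% to 8.10% were not whole (tolerance 1e-06), and sums were rounded for count tests. The per-sample totals were 189704 to 12442031 tags, and intervals cover counting error only, since PCR copies cannot be told from molecules.

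Tags were summed in bins of 100 kb and 1 Mb and within 1 kb of placed promoters. edgeR 4.0.16 (R 4.3.3) fitted MspI tags with terms for line and AA (bins of 100 or more reference sites in which every MspI library had 20 tags or more). HpaII relative to MspI was fitted over all 12 libraries with terms for DNA sample, enzyme, enzyme by line and enzyme by AA, and again with AA in each line. Features needed at least 10 MspI tags in each library and 10 HpaII tags in sum. TMM factors were computed within each enzyme, Benjamini-Hochberg adjustment ran over all features of the genome, and a call was an adjusted p under 0.05. These fits have 3 and 2 residual degrees of freedom, and they take the lone control of each line to be as variable as the rest. Tested on simulated data, the MspI fit recovered 26% of 200 bins changed 1.5-fold among 2854, with 5 of 57 calls false, and the HpaII fit recovered 8.54% of 199 bins changed 8-fold by AA among 15009, with 0 of 17 calls false. Many changed bins are therefore not called.

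Promoters were placed by matching the CCGG spacing of RefSeq promoter sequences to the site positions, with at least 4 listed sites matching. All 193 sequences placed on 3p belong to chromosome 3 in RefSeq, and all 192 steps between neighbours were in RefSeq order. No coordinates of another build were used. Promoters are a sample biased to CCGG-rich starts.

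The 5 largest rises and falls among called, non-overlapping features were named per test, and up to 3 by smallest p where fewer passed. Those that the text leaves out had no call. The 3p sites, the gene lists and the tests were chosen with earlier results of these data known, and the promoter fits were added after the values were seen. The AA numbers did not pair samples (correlations of deviations -0.025, -0.027 and 0.002). Alternatives were DESeq2 1.42.0, library totals, other filters and bin sizes, thinning to 160231 HpaII tags, a replicate block and leaving out each DNA sample. Python 3.11.15 with numpy 2.4.6, pandas 2.3.3, scipy 1.17.1 and matplotlib 3.10.9 was used.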

Additional observations from a re-analysis of the deposited data

Results flagged for a closer look

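At 2 features of 3p the AA effect differed between the lines by the test of the difference itself. In the bin chr3:13500001-13600000, which holds the placed promoters of HDAC11, a histone deacetylase, and FBLN2, an extracellular matrix protein, the HpaII tags were 497, 402 and 138 in the control and AA samples of 769 and 0, 937 and 370 in those of 786. AA samples had 0.603 times the ratio of the control in 769 and were 4.97-fold higher in 786 against the floor of 3 tags (fitted log2 difference 12.7, which depends on the 0 tags, edgeR adjusted p = 0.048, background 0.986%). At the MITF promoter the fitted log2 difference was 6.63 (edgeR adjusted p = 0.039). Both rest on the shallow 786 control, with 0 and 1 HpaII tags. With all libraries of an enzyme thinned to its smallest, the first kept its call (edgeR adjusted p = 0.030) and the second lost it (0.11). The first was also lost with library totals (0.052) or without 769 AA sample 1 (0.077), and the second without 786 AA sample 1 (0.11), all by edgeR.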

How the results depend on the processing

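The difference of the MspI level between the lines kept its direction under every alternative run (log2 0.58), at 0.39 by the number of sites with a tag and 0.50 relative to 3q. Its 46 bins of 1 Mb were all higher in 786. With bins of 100 kb they became 27 of 308 (8.77%, against 4.46% over the genome). By DESeq2 they became 56 with 1 lower (62.9% against 29%). They stayed within 35 to 48 when 1 DNA sample was left out, with 2 lower among 45 without 786 AA sample 2. The AA difference of HpaII over MspI on the whole arm (log2 0.10) turned to -0.20 in dense sites alone, and was 0.41 in isolated sites alone and 0.18 by number of sites. The line difference (-0.12) was -0.25 in dense sites and turned to 1.19 in isolated ones. The AA difference of the isolated-to-dense ratio (0.61) was 1.08 by number of sites. The cause was not tested.

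Counts of called features of HpaII relative to MspI moved with the tool and filter. By DESeq2 they were 20 bins between the lines, 16 with AA, 62 with AA in 769 (42 higher, 20 lower) and 21 for the difference, which are 5.65%, 4.52%, 17.5% and 5.93% of bins against 7.96%, 3.13%, 15.1% and 6.23% over the genome. Without a filter they were 4, 6, 25 and 7, and 2 with AA in 786. These are 0.444%, 0.666%, 2.77%, 0.777% and 0.222% of bins, against 2.17%, 1.21%, 3.69%, 2.11% and 1.31% over the genome. With 10 or more HpaII tags required in every library they were 1 between the lines, 4 with AA in 769 and 0 for the difference. These are 1.33%, 5.33% and 0% of bins, against 2.81%, 4.47% and 1.8% over the genome. Bins of 1 Mb gave 4 with AA in 769 (4.44%, against 3.58% over the genome) and 1 in 786 (1.11% against 2.57%). Thinning gave 2 between the lines, 1 with AA in 769 and 1 in 786. These are 0.803%, 0.402% and 0.402% of bins, against 1.9%, 0.528% and 2.14% over the genome. Library totals gave 0 for the difference (0.967% over the genome). Leaving out 1 DNA sample gave 0 to 1 between the lines, 0 to 2 with AA, 7 to 21 with AA in 769, 0 to 1 in 786 and 0 to 4 for the difference.

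For promoters DESeq2 gave 8 with AA, 12 with AA in 769 and 3 for the difference, which are 5.88%, 8.82% and 2.21% against 1.78%, 3.70% and 79 of 5270 promoters over the genome. Library totals gave 8 with AA in 769 (5.88%, against 2.47% over the genome) and 2 for the difference (1.47% against 1.12%). No filter gave 0 with AA (0.278% over the genome) and 3 with AA in 769 (1.71% against 1.27%). Thinning gave 0 between the lines, 0 with AA, 0 with AA in 769 and 0 for the difference, from fewer promoters tested. The shares over the genome were then 0.0414%, 0.0207%, 0% and 0.0414%. Leaving out 1 DNA sample gave 0 to 1 between the lines, 0 to 1 with AA, 3 to 13 with AA in 769, 0 to 3 in 786 and 0 to 11 for the difference. Among named features with no call, chr3:46000001-47000000 for AA in MspI turned from -0.30 to 0.23 in the first 100 kb of it, and chr3:45000001-45100000 turned from 5.74 to -0.29 over its 1 Mb bin.

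The replicate block, which takes equal AA numbers of the lines as belonging together, gave 48 bins for MspI (53.9%, against 26.2% over the genome). For HpaII between the lines it gave 1 bin (0.282% against 3.16%) and 1 promoter (0.735% against 0.74%). AA effects could not be fitted with the block, nor with a control left out for its own line. The depth of the 786 control, 2242 HpaII tags on 3p, limits every AA comparison in 786: 136 of 354 bins had 0 tags there.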
